A study of Homo sapiens with 58 samples.

Results

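The genes described are 8 genes that developmental biologists use to tell kinds of mesoderm apart, taken by symbol from the deposited tables: PDGFRA, PDGFRB, KDR, FLT1, TEK, APLNR, CXCR4 and LMO2. They are 8 of 19084 genes, and all 8 passed the filter on low counts in both parts of the data. The set is labelled as mesoderm surface receptors, which holds for 7 of them: LMO2 encodes a nuclear adaptor protein and was grouped with them as a gene of blood and vessel precursors. RNA-seq was run on total RNA of H1, an embryonic stem cell line of human origin and wild-type genotype, at passages p30 to p40 and kept in E8 medium. In the daily series each of 4 days had 3 libraries. Day0 was embryonic stem cells and Day1 was mesendoderm, the precursor of mesoderm and endoderm, after 24 hours in E8 medium with 100 ng/mL Activin A and 3 μM CHIR99021, which activates Wnt signalling. Day2, presomitic mesoderm, followed another 24 hours in E6 medium with CHIR99021 at 3 μM, NOGGIN (which binds BMPs) at 100 ng/mL, FGF2 at 100 ng/mL and A83-01 (which blocks activin and nodal receptors) at 2 μM. Day3 was somite cells, and the somite medium held 1 μM of the MEK inhibitor PD0325901, 2.5 μM of the Wnt inhibitor IWR1, 2 μM A83-01 and 100 ng/mL NOGGIN. A separate course of presomitic mesoderm ran from 30 to 690 min in steps of 30 min, with 23 time points and 2 libraries for each. The sources used here give neither its medium nor its zero point, so course and days were not tested against each other. All groups share 1 cell line and 1 genotype.

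PDGFRA and PDGFRB encode the receptor tyrosine kinases for platelet-derived growth factors; in the embryo PDGFRA marks paraxial mesoderm, and PDGFRB marks the mural cells that wrap vessels. KDR and FLT1 encode the main receptors for vascular endothelial growth factors. KDR carries most of the signal for vessel growth and marks lateral and vascular mesoderm, and FLT1 binds the ligand tightly and acts largely as a decoy. TEK encodes the angiopoietin receptor of endothelium and blood stem cells. APLNR, the apelin and Elabela receptor, and CXCR4, the receptor for the chemokine CXCL12, are G protein-coupled receptors that guide moving mesendoderm cells. LMO2 bridges GATA and bHLH factors in blood and endothelial precursors. In stem cell cultures, loss of KDR with gain of PDGFRA is a usual sign of paraxial rather than lateral mesoderm.

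Promoter windows were found in RefSeq (GRCh38.p14) for 6 of the 8 genes, and 5 windows are shown because PDGFRA and KDR lie on the same chromosome with 1 protein-coding gene, KIT, between them and moved in opposite directions, while KDR and FLT1 fell and CXCR4 peaked at Day2. Each line is the 250 bases before a transcript start, 5′ to 3′ on the gene's strand, with motif matches in capitals. The PDGFRA windows lie at chr4:54229043-54229292 and chr4:54233710-54233959 on the plus strand. KDR lies at chr4:55125596-55125845, CXCR4 at chr2:136118150-136118399 and FLT1 at chr13:28495129-28495378, all on the minus strand.

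PDGFRA, first start: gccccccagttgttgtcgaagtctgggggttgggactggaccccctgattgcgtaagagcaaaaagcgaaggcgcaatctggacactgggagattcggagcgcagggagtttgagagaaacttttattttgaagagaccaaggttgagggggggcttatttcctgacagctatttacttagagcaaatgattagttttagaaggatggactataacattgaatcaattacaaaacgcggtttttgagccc
PDGFRA, second start: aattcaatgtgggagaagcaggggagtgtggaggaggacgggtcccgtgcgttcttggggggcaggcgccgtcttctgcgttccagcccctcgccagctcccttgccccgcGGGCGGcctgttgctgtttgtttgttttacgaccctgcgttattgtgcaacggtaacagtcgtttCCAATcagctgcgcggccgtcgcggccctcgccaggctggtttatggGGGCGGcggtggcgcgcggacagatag
KDR: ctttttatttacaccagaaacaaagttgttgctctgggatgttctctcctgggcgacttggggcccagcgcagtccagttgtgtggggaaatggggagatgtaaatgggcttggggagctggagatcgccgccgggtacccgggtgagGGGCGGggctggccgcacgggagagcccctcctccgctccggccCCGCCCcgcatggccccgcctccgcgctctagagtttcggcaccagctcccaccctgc
FLT1: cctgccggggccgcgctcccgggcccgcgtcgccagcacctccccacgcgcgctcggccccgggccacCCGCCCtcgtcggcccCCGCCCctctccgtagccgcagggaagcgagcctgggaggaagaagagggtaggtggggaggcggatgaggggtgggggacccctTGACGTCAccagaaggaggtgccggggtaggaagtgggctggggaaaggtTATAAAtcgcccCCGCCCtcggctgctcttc
CXCR4, first of 3 starts: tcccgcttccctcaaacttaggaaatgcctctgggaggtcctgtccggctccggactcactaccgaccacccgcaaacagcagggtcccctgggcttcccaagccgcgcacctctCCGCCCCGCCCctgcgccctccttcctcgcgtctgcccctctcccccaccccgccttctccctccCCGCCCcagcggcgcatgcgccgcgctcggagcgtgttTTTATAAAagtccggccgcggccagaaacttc

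Motifs were searched on both strands, and were chosen after the sequences had been seen. The GC box GGGCGG occurs in 42.6% of all 35116 windows of this length, the TATA box TATAAA in 10.7%, CCAAT in 32% and the cAMP response element TGACGTCA in 1.65%. FLT1 held a TATA box starting 31 bases before its start, a cAMP response element 81 bases before it and 3 GC boxes. CXCR4 held 3 GC boxes, 2 of which share a base, and a TATA box that reads on both strands in overlapping letters 32 and 30 bases before its start. KDR held 2 GC boxes and neither a TATA box nor CCAAT. The second PDGFRA window held 2 GC boxes and 1 CCAAT, and the first held none of the motifs searched. None of the 5 windows matched the T-box half-site AGGTGTNA (2.15% of all windows), the LEF/TCF letters CTTTGNA (12.8%), the ETS letters CCGGAA (14.5%), the GATA letters AGATAA (9.17%) or the hypoxia core ACGTG (18.5%). Windows not shown did hold some of these. The third CXCR4 start had LEF/TCF letters 184 bases before it. The second TEK start had LEF/TCF letters 77 bases and GATA letters 177 bases before it.

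Depth was 3.16 to 7.81 M expected counts per daily library and 2.53 to 8.96 M per course library. Replicates correlated at r 0.875 to 0.962 across genes in the daily series, lowest at Day2 (0.875 to 0.894), and at 0.917 to 0.976 in the course. Day2 replicate 1 had the lowest PDGFRA and APLNR of the Day2 libraries. It had the highest KDR, FLT1, LMO2, CXCR4, PDGFRB and TEK, the last 3 by small margins. Its summed level of 10 paraxial mesoderm markers was 104.6 TPM against 161.2 and 296.2 TPM in the other Day2 libraries, and that of 10 lateral and cardiac markers was 45.4 TPM against 21.2 and 18.7 TPM. Whether replicates were separate cultures is not stated in the labels: the p-values therefore weigh differences against the spread between these libraries alone, which may be technical. In such bulk RNA, fewer cells of a type and less RNA per cell cannot be told apart. Of the 9 endothelial markers in the tables, only EGFL7 passed the filter in the daily series. The summed level of the 9 was 16.2 to 28.1 TPM at Day0 and 4.54 to 15.8 TPM at Day1. It was 1.57 to 7.3 TPM at Day2 and 20.5 to 45.1 TPM at Day3. EGFL7 made up most of this sum, with means of 22.2, 7.2, 4.23 and 28.6 TPM on the 4 days.

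Over the 4 days 7 of the 8 genes changed, TEK being the exception, where 43.6% of 12765 genes tested did (edgeR quasi-likelihood F test, Benjamini-Hochberg adjusted p under 0.05). PDGFRA and APLNR rose over the whole series, KDR and FLT1 fell, CXCR4 and LMO2 peaked at Day2, and PDGFRB rose at Day3. A gene was called between 2 days at an adjusted p under 0.05 with a log2 change of 1 or more in either direction. From Day0 to Day1 3 of the 8 were called, PDGFRA and APLNR higher and FLT1 lower, beside 5.18% of all genes (2.72% higher, 2.46% lower). From Day1 to Day2 4 were called, PDGFRA, CXCR4 and LMO2 higher and KDR lower, beside 11.7% of all genes (3.58% higher, 8.16% lower). From Day2 to Day3 7 were called, PDGFRA, PDGFRB and APLNR higher and KDR, FLT1, CXCR4 and LMO2 lower, beside 13.1% of all genes (9.03% higher, 4.03% lower). Over longer spans 6 of the 8 were called each time. Day2 against Day0 had PDGFRA, APLNR, CXCR4 and LMO2 higher and KDR and FLT1 lower, beside 19.7% of all genes (8.3% higher, 11.4% lower). Day3 had PDGFRA, PDGFRB, APLNR and CXCR4 higher and KDR and FLT1 lower, both against Day0, beside 14.2% of all genes (7.07% higher, 7.09% lower), and against Day1, beside 13.8% (7.13% higher, 6.64% lower). These comparisons share libraries, so their counts are not independent. The median log2 change of the 8 genes was 0.32, 0.72 and -0.49 in the 3 steps, against -0.01, -0.04 and 0.08 over all genes tested. Without Day2 replicate 1 the counts were 5 from Day1 to Day2 and 6 from Day2 to Day3.

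**Figure D1:**
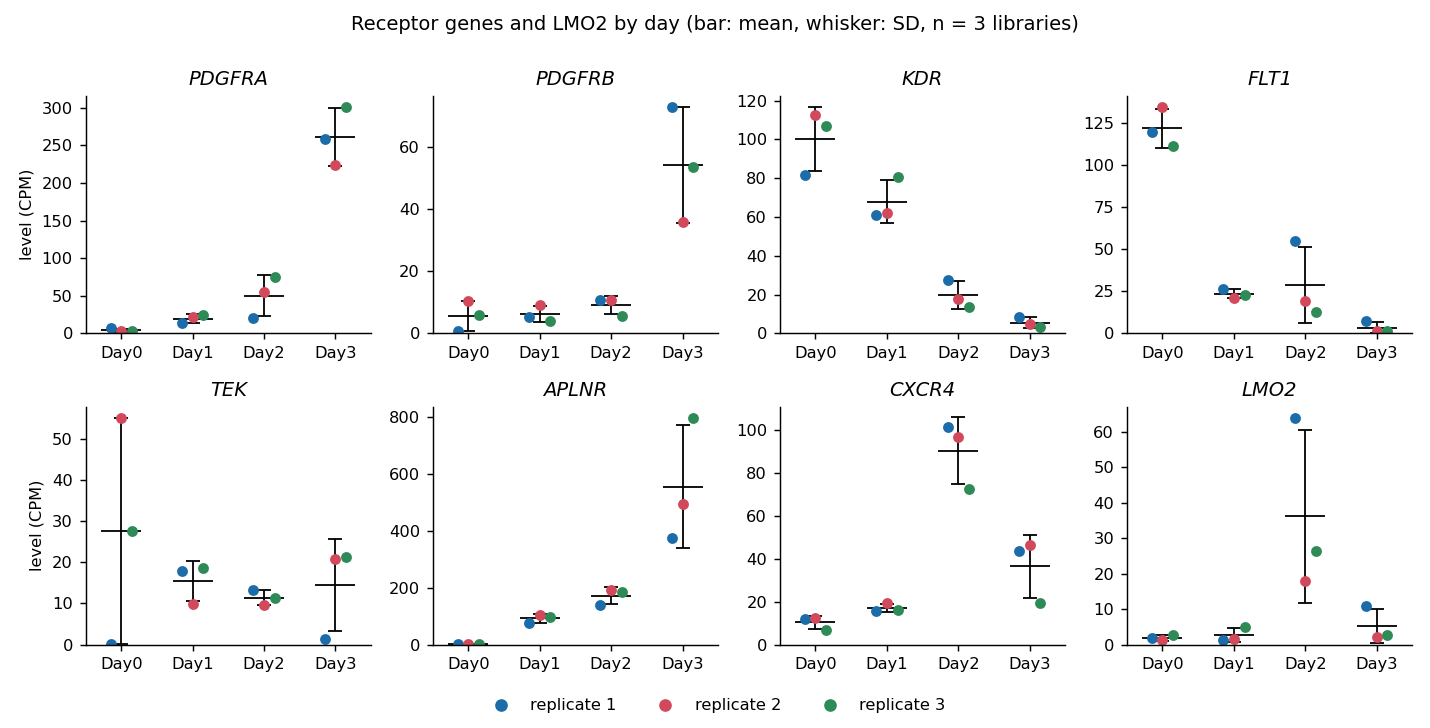
Level in CPM (y axis) of the 8 genes on each day (x axis), with each of the 3 libraries as a point coloured by replicate number, the mean as a bar and the SD as a whisker. PDGFRA and APLNR are highest at Day3, KDR and FLT1 at Day0, and CXCR4 and LMO2 at Day2.

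PDGFRA was low in stem cells and rose at each step. Its 3 libraries gave 6.54, 2.52 and 2.76 CPM (counts scaled to library size by TMM) at Day0, 13.0, 21.3 and 24.3 CPM at Day1, 20.6, 54.4 and 74.8 CPM at Day2 and 258, 225 and 301 CPM at Day3. Libraries of Day1 and Day2 overlapped because of Day2 replicate 1, and those of the other neighbouring days did not. The mean went from 3.94 ± 2.25 CPM (SD, n = 3) to 261 ± 38.5 CPM (SD, n = 3), 64.1-fold (log2 SE 0.46, edgeR adjusted p = 1.03e-07). The step to Day1 was 4.82-fold (adjusted p = 0.0033), the step to Day2 2.54-fold (adjusted p = 0.0209) and the step to Day3 5.23-fold (adjusted p = 0.000454). The call from Day1 to Day2 was the least stable of the 3: it was lost without Day1 replicate 1 (adjusted p = 0.0791), Day1 replicate 2 (0.0633), Day2 replicate 2 (0.0519) or Day2 replicate 3 (0.0845), and on log2(TPM + 1) values (log2 change 0.94, limma adjusted p = 0.127). Without Day2 replicate 1 it was larger, at a log2 change of 1.74 (adjusted p = 0.00219). Without Day0 replicate 1, the highest PDGFRA library of its day, the log2 change to Day1 was 2.89 in place of 2.27 and that to Day3 6.62 in place of 6.00.

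PDGFRB, the mural cell receptor, was low until Day2 and rose in the last step. Its libraries gave 0.641, 10.4 and 5.86 CPM at Day0, 5.36, 9.05 and 4.11 CPM at Day1, 10.8, 10.6 and 5.71 CPM at Day2 and 73.0, 35.8 and 53.7 CPM at Day3. The first 3 days overlapped and all Day3 libraries were above them. The mean at Day3 was 54.2 ± 18.6 CPM (SD, n = 3), 6.01-fold over Day2 (log2 SE 0.61, adjusted p = 0.00712). Neither earlier step passed the test (adjusted p = 0.924 and 0.582), and the sign of the first turned without Day0 replicate 1 or Day1 replicate 2. The summed level of 5 mural cell markers ran from 114 to 247 TPM at Day0, 592 to 665 TPM at Day1, 600 to 692 TPM at Day2 and 461 to 782 TPM at Day3. TAGLN, a contractile gene that rose at Day1, made up most of that sum, at 534 ± 35.7 TPM at Day1 (SD, n = 3). RGS5, a pericyte gene, fell at Day2. ACTA2, smooth muscle actin, was called higher at Day2 (lost without Day1 replicate 2, adjusted p = 0.0637) and lower at Day3 (lost in the fit of the 6 libraries alone, adjusted p = 0.0969, on log2(TPM + 0.1) values, and without Day2 replicate 2, Day3 replicate 1 or Day3 replicate 3).

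KDR was high in stem cells and fell day by day. Its libraries gave 81.5, 112 and 107 CPM at Day0, 60.8, 62.1 and 80.9 CPM at Day1, 27.6, 17.7 and 13.5 CPM at Day2 and 8.63, 4.81 and 3.16 CPM at Day3. No 2 days overlapped, and the lowest Day0 library lay just above the highest Day1 library; that step did not pass the test (log2 change -0.56, SE 0.29, adjusted p = 0.284). The falls to Day2 (3.47-fold, adjusted p = 0.0012) and to Day3 (3.60-fold, adjusted p = 0.00176) did. From Day0 to Day3 the mean went from 100.4 ± 16.5 to 5.53 ± 2.81 CPM (SD, n = 3), 18.4-fold lower (log2 SE 0.35, adjusted p = 2.88e-07).

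FLT1 also started high but fell in 2 steps, at Day1 and at Day3. Its libraries gave 119, 134 and 111 CPM at Day0, 26.3, 21.1 and 22.7 CPM at Day1, 54.6, 19.1 and 12.9 CPM at Day2 and 7.19, 1.46 and 1.52 CPM at Day3. Day0 stood above all other days, Day3 below them, and Day1 and Day2 overlapped. It was 5.20-fold lower at Day1 than at Day0 (log2 SE 0.47, adjusted p = 0.00456; 0.0539 on log2(TPM + 0.1) values with limma) and 8.66-fold lower at Day3 than at Day2 (log2 SE 0.55, adjusted p = 0.00106). From Day1 to Day2 it did not pass the test (log2 change 0.31, SE 0.47, adjusted p = 0.688), and without Day2 replicate 1, its highest Day2 library, the log2 change was -0.52. From Day0 to Day3 it was 36.4-fold lower (adjusted p = 5.47e-06). Without Day3 replicate 1, its highest Day3 library, the log2 change was -6.32 from Day0 and -4.25 from Day2, against -5.19 and -3.12 with it; without Day2 replicate 1 the latter was -2.30.

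TEK passed no test over the days (edgeR adjusted p = 0.655). Its libraries gave 0.128, 55.1 and 27.6 CPM at Day0, 17.9, 9.88 and 18.6 CPM at Day1, 13.3, 9.54 and 11.4 CPM at Day2 and 1.44, 20.7 and 21.3 CPM at Day3. All days overlapped. The lowest value of all, a single count, and the highest, 328 counts, both came from Day0, and replicate 1 was also the low library at Day3. Day0 replicate 1 also had the highest summed level of 7 mesendoderm markers on its day, 73.4 TPM against 8.6 and 7.32 TPM. NODAL, at up to 60.6 TPM at Day0, made up most of the 73.4 TPM. The part of this difference in the TEK value was not tested. The 3 steps had adjusted p-values of 0.696, 0.799 and 0.838, and the log2 standard errors of 0.955, 0.99 and 0.986 were the widest among the 8 genes.

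APLNR went from close to the floor of 3 counts per library to the highest of the 8 genes. Its libraries gave 0.513, 1.17 and 0.861 CPM at Day0, 75.7, 105 and 95.2 CPM at Day1, 137, 192 and 185 CPM at Day2 and 375, 496 and 797 CPM at Day3. No 2 days overlapped. The 16 counts over the 3 Day0 libraries became 1435 at Day1, 108.5-fold higher (log2 SE 0.37, edgeR adjusted p = 5.98e-09). The change from Day1 to Day2 was 1.87-fold (log2 0.90, SE 0.24, adjusted p = 0.0152), under the limit of 1 log2 unit, and reached 1.01 and 1.06 without Day1 replicate 2 and Day2 replicate 1. Day3 was 3.24-fold over Day2 (adjusted p = 0.000201) and 657-fold over Day0 (adjusted p = 1.1e-10).

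CXCR4 rose at Day2 and fell part of the way back at Day3. Its libraries gave 12.0, 12.3 and 6.89 CPM at Day0, 15.6, 19.3 and 16.1 CPM at Day1, 102, 96.8 and 72.7 CPM at Day2 and 43.7, 46.2 and 19.4 CPM at Day3. No 2 days overlapped, with Day3 replicate 3 just above the highest Day1 library. It was 5.30-fold higher at Day2 than at Day1 (log2 SE 0.32, adjusted p = 0.000152) and 2.49-fold lower at Day3 than at Day2 (log2 SE 0.31, adjusted p = 0.00668). Day3 stayed 3.47-fold above Day0 (adjusted p = 0.00075). Its excess over Day1 (2.13-fold, adjusted p = 0.0207) was lost without Day1 replicate 1, Day1 replicate 3, Day3 replicate 1 or Day3 replicate 2, with log2 changes between 0.88 and 1.05.

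LMO2 showed a pulse at Day2. Its libraries gave 1.79, 1.17 and 2.76 CPM at Day0, 1.40, 1.68 and 4.90 CPM at Day1, 63.8, 18.0 and 26.4 CPM at Day2 and 10.8, 2.09 and 2.69 CPM at Day3. All Day2 libraries were above those of the other 3 days, which overlapped. The rise was 13.4-fold (log2 SE 0.72, adjusted p = 0.00219) and the fall 6.96-fold (log2 SE 0.68, adjusted p = 0.00814). Both are smaller without Day2 replicate 1: the log2 changes were 3.08 (adjusted p = 0.0135) and -2.14 (adjusted p = 0.0527, no longer called). Without Day1 replicate 3 the rise was 4.53 log2 units in place of 3.75, and without Day3 replicate 1 the fall was -3.89 in place of -2.80. Of 10 LMO2 partners and related blood and endothelial factors 4 passed the filter, and none was called in the step of the LMO2 rise. LDB1 was under the limit of 1 there (log2 change 0.93, adjusted p = 0.0352), and FLI1 did not pass the test (log2 change 3.63, adjusted p = 0.0648). FLI1 had 10, 5, 41 and 265 counts on the 4 days, with Day3 libraries from 5.38 to 34.7 CPM. It was called higher at Day3 than at Day0 (27.0-fold, adjusted p = 0.0126) and Day1 (42.2-fold, adjusted p = 0.00882). ERG, an endothelial factor, had 177 counts at Day0, 1 at Day1, 1 at Day2 and 83 at Day3, and its calls at Day1 (adjusted p = 0.0163) and Day3 (adjusted p = 0.0412) were lost when some single libraries were left out. LDB1, the LIM-binding partner, and TCF3, the bHLH partner, singled out after their values were seen, were at 75.4 ± 25.8 and 93.7 ± 20.5 CPM at Day2 (SD, n = 3). The 3 Day2 libraries held 1 count of TAL1, 14 of GATA2, 0 of GATA1 and 0 of LYL1.

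**Figure D2:**
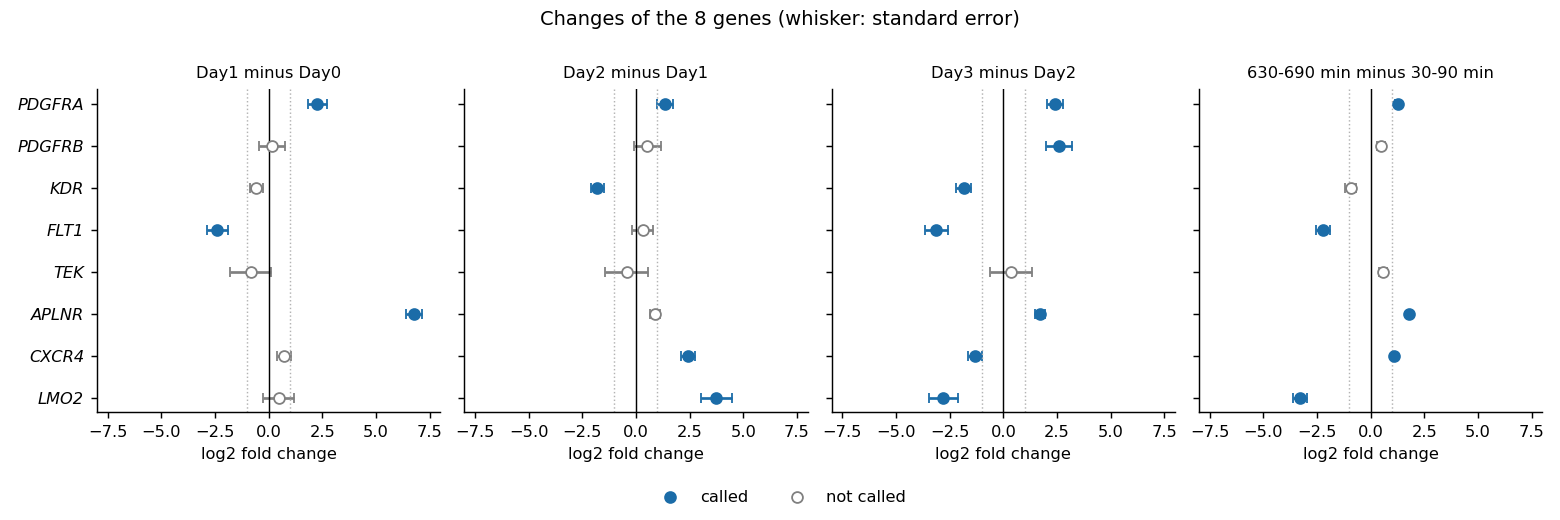
Log2 fold change (x axis) of the 8 genes (y axis) between successive days and between the end and the start of the course, with the standard error as a whisker; filled points were called and dotted lines mark the limit of 1 log2 unit. PDGFRA moves to the right in every panel, while CXCR4 and LMO2 move right to Day2 and left to Day3.

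Per length, on the TPM scale, the leading gene of the 8 differed from day to day. At Day0 FLT1 (47.5 ± 9.45 TPM) and KDR (40.2 ± 7.72 TPM) together made up most of the summed level, at 38.1% and 32.2%. At Day1 APLNR led with 53.0 ± 8.86 TPM and KDR followed with 25.1 ± 4.88 TPM. At Day2 CXCR4 (107 ± 14.1 TPM) and APLNR (87.6 ± 16.6 TPM) were highest, and their spreads overlap. At Day3 APLNR held 64.9% of the sum, at 347 ± 154 TPM, and PDGFRA was second with 94.8 ± 17.8 TPM, while KDR and FLT1 were lowest at 2.14 ± 0.971 and 1.77 ± 1.84 TPM (all SD, n = 3).

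The balance of PDGFRA and KDR turned between Day1 and Day2. It starts from the stem cells of Day0, where KDR was highest of the 4 days (40.2 ± 7.72 TPM, SD, n = 3). As the log2 ratio of PDGFRA + 1 to KDR + 1 in TPM, a description with no test, the mean was -4.11 ± 0.712 at Day0, -1.80 ± 0.29 at Day1, 1.01 ± 1.34 at Day2 and 4.96 ± 0.633 at Day3 (SD, n = 3). Day2 replicate 1 was the only Day2 library below 0, at -0.474, and the highest Day2 library was at 2.13. KIT, the stem cell factor receptor gene that lies between the pair, passed the test in no successive step: it was at 30.8 ± 17.9, 17.3 ± 4.47, 5.68 ± 7.34 and 7.71 ± 4.02 CPM on the 4 days (SD, n = 3). Its falls from Day0 to Day2 (5.33-fold, adjusted p = 0.0167) and to Day3 (3.96-fold, adjusted p = 0.0444) were called. Across the 12 daily libraries the Pearson correlation of log2 CPM was -0.943 between PDGFRA and KDR, 0.902 between KDR and FLT1, -0.941 between PDGFRA and FLT1, 0.896 between PDGFRA and APLNR and 0.827 between CXCR4 and LMO2. These describe 12 points that share 4 days.

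**Figure D3:**
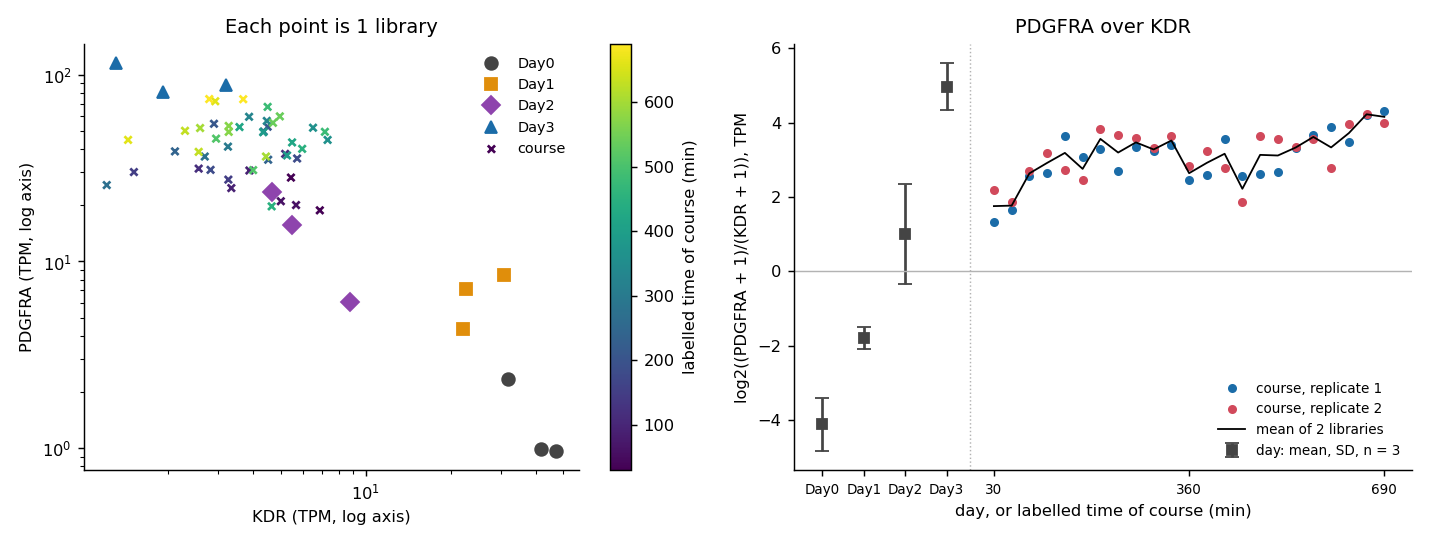
Left, PDGFRA against KDR in TPM on log axes, 1 point per library, with days as symbols and course libraries as crosses coloured by time; right, the log2 ratio of PDGFRA + 1 to KDR + 1 in TPM by day (mean and SD, n = 3) and by time in the course (each library and the mean of 2). The daily means climb from -4.11 to 4.96, and all course libraries lie above 0.

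In the course 7 of the 8 genes differed among the 23 time points, KDR being the exception (edgeR adjusted p = 0.108), where 28.9% of 13653 genes tested did. A linear trend was called for 5, PDGFRA, APLNR and CXCR4 rising and FLT1 and LMO2 falling, beside 12.1% of all genes (5.78% higher, 6.34% lower). The last 3 time points (630 to 690 min, 6 libraries) against the first 3 (30 to 90 min, 6 libraries) called the same 5 genes in the same directions, beside 9.45% of all genes (4.77% higher, 4.68% lower). The median log2 change of the 8 was 0.52 there, against -0.02 over all genes tested. The 2 tests share libraries.

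**Figure D4:**
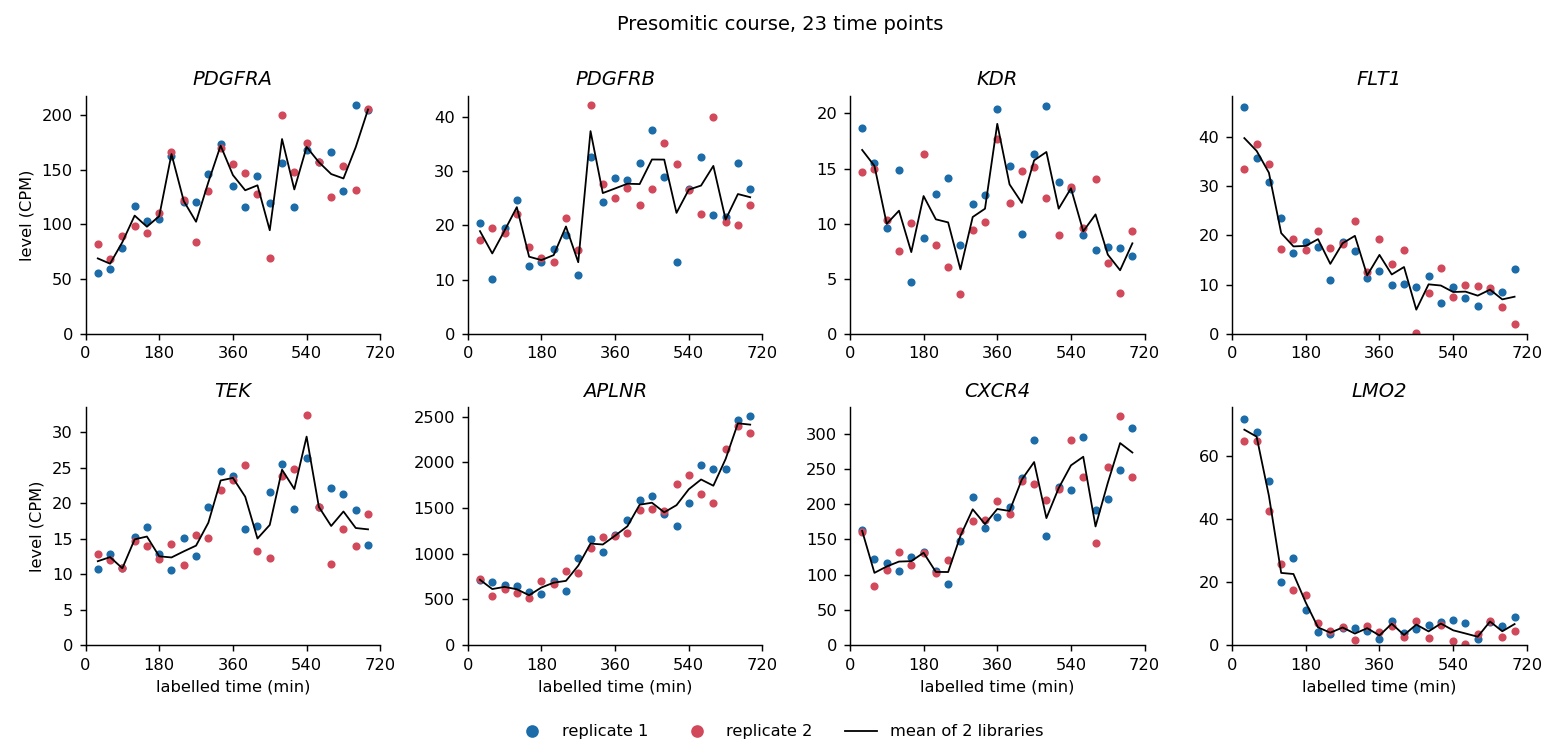
Level in CPM (y axis) of the 8 genes against the labelled time in min (x axis), with replicate 1 and replicate 2 as points and the mean of both as a line. LMO2 falls within the first 210 min, FLT1 falls more slowly, and APLNR and CXCR4 climb after 240 min.

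APLNR had the largest rise in level. In the first 6 libraries it ran from 541 to 720 CPM with a median of 673, and in the last 6 from 1925 to 2503 CPM with a median of 2361. It had its lowest mean at 150 min (546 CPM) and its highest at 660 min (2428 CPM). The groups did not overlap, and the change was 3.5-fold (log2 SE 0.09, adjusted p = 1.36e-21). CXCR4 went from 83.5 to 164 CPM (median 119) in the first 6 libraries to 208 to 326 CPM (median 251) in the last 6, without overlap, 2.13-fold (log2 SE 0.11, adjusted p = 2.57e-11). Its 30 min libraries, at 163.9 and 160.5 CPM, were higher than every library from 60 to 240 min, and the windows from 120 to 270 min had means of 123 and 121 CPM. Per length CXCR4 rose to 356 ± 75.3 TPM and APLNR to 1326 ± 209 TPM in the last window (SD, n = 6), the 2 highest of the 8 genes.

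PDGFRA rose unevenly. It ran from 55.5 to 89.1 CPM (median 73.4) at 30 to 90 min, 92.4 to 117 CPM (median 104) at 120 to 180 min, and 130 to 209 CPM (median 179) at 630 to 690 min. The first and last windows did not overlap, and the change was 2.38-fold (log2 SE 0.12, adjusted p = 1.37e-11). The 2 libraries at 450 min gave 120 and 69.6 CPM, while those at 210 min gave 162 and 166 CPM. PDGFRB was between 10 and 24.6 CPM in every library from 30 to 270 min and between 13.2 and 42.2 CPM from 300 min on, highest at 300 min with a mean of 37.3 CPM. It differed among time points (adjusted p = 0.00237) and had a linear trend of 0.79 log2 units (SE 0.21, adjusted p = 0.00195), under the limit of 1. TEK had a similar small trend of 0.81 log2 units (SE 0.19, adjusted p = 0.000546), from 10.8 to 12.9 CPM in the first 6 libraries to 13.9 to 21.3 CPM in the last 6, and its highest mean was 29.4 CPM at 540 min.

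LMO2 fell furthest. Its pair of libraries gave 72.0 and 64.9 CPM at 30 min, 52.2 and 42.7 CPM at 90 min, 11.2 and 15.8 CPM at 180 min and 4.30 and 6.95 CPM at 210 min. From 210 min on all libraries were at or below 8.89 CPM. The last 6 libraries ran from 2.72 to 8.89 CPM (median 6.72), 9.67-fold below the first 6 (log2 SE 0.33, adjusted p = 2.88e-11). FLT1 ran from 30.9 to 46.0 CPM (median 35.2) at first and from 2.01 to 13.1 CPM (median 8.65) at last, without overlap, 4.63-fold lower (log2 SE 0.32, adjusted p = 2.14e-07; a log2 change of -2.82 in place of -2.21 without replicate 1 at 690 min). At 450 min its replicate 2 was at 0.237 CPM and its replicate 1 at 9.58 CPM. KDR stayed low throughout, with a median of 11.1 CPM over 46 libraries and a range of 3.63 to 20.7 CPM. Its last 6 libraries (3.74 to 9.36 CPM) were all below its first 6 (9.60 to 18.7 CPM), a log2 change of -0.94 (SE 0.27, adjusted p = 0.0074) that is under the limit of 1 and reached -1.16 without replicate 1 at 660 min and -1.0 without replicate 2 at 690 min.

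The log2 ratio of PDGFRA to KDR went from 2.05 ± 0.531 in the first window to 4.03 ± 0.305 in the last (SD, n = 6). Set side by side and untested, the first window lies near the highest Day2 library and the last near the lowest Day3 library, at 4.41. In TPM, LMO2 was at 83.6 ± 15.8 in the first window of the course and 45.0 ± 29.6 at Day2, and at 8.69 ± 3.26 in the last window (SD, n = 6) and 7.60 ± 6.75 at Day3 (SD, n = 3 for days). CXCR4 stood at 356 ± 75.3 TPM in the last window of the course and 51.7 ± 19.6 TPM at Day3, and APLNR stood at 1326 ± 209 and 347 ± 154 TPM. PDGFRB stood at 9.38 ± 2.09 TPM in the last window and 22.4 ± 7.01 TPM at Day3.

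A rhythm with a period of 300 min, tested beside a quadratic trend, was called for 0 of the 8 genes by edgeR, beside 0.132% of all genes. At an unadjusted p under 0.05 edgeR had only APLNR of the 8 (adjusted p = 0.14), with a fitted trough-to-peak change of 0.30 log2 units. With no filter on low counts its adjusted p was 0.0364. Across the 23 time-point means the correlation of log2 CPM was 0.919 between APLNR and CXCR4, 0.672 between PDGFRA and APLNR, -0.812 between PDGFRA and LMO2 and -0.207 between PDGFRA and KDR, whose value over the days was far more negative. These points share a trend over time.

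The ligand genes of the receptors were mostly low. Of 13 found in the files, 10 passed the filter over the days; 1 was called at Day1, 2 at Day2 and 4 at Day3. PDGFA, which signals through PDGFRA, was at 60.0 ± 57.4, 11.4 ± 1.88, 6.06 ± 1.8 and 77.1 ± 32.2 CPM on the 4 days (SD, n = 3); it fell 5.26-fold to Day1 (adjusted p = 0.00733; a log2 change of -1.24 without Day0 replicate 1, its highest library) and rose 12.6-fold to Day3 (adjusted p = 0.000402), a step in which PDGFRA also rose. PDGFD, a ligand of PDGFRB, fell from 40 counts at Day1 to 3 at Day2 (8.08-fold, 95% counting interval 2.57 to 40.8; adjusted p = 0.0407, lost when any of 8 libraries was left out) and was back at 77 counts at Day3 (adjusted p = 0.0151; 0.0918 in a fit of the 6 libraries alone). PDGFC, another PDGFRA ligand, did not pass the test in any step. VEGFA, the main ligand of KDR and FLT1, was between 6.55 and 57.7 CPM in all 12 libraries and did not pass the test in any successive step, nor did VEGFB or VEGFC. VEGFA was called lower at Day3 than at Day1 (2.49-fold, edgeR adjusted p = 0.0294), though it did not pass the test over the 4 days (adjusted p = 0.061). CXCL12, the CXCR4 ligand, moved opposite to its receptor gene in the last 2 steps: it was at 43.4 ± 4.12, 21.8 ± 6.9, 6.10 ± 5.09 and 22.8 ± 4.88 CPM, falling 3.58-fold to Day2 (adjusted p = 0.0272; not called without Day1 replicate 1, without Day1 replicate 2 or in a fit of the 6 libraries alone; a log2 change of -1.25 without Day2 replicate 1) and rising 3.75-fold to Day3 (adjusted p = 0.0205; not called without Day3 replicate 3 or in such a fit; a log2 change of 1.31 without Day2 replicate 1). ANGPT2, a ligand of TEK, rose from 10 counts over the Day2 libraries to 403 at Day3, at 20 ± 6.52 CPM (log2 change 4.23, adjusted p = 0.00686; 3.66 without Day2 replicate 2 and 5.78 without Day2 replicate 3). ANGPT1, the activating one, had day means of 6.61 to 7.39 CPM and single libraries from 1.85 to 11.9 CPM. PDGFB, the main PDGFRB ligand, had 41 counts at Day0, 8 at Day1, 13 at Day2 and 1 at Day3. It was called lower at Day3 than at Day0 (30.8-fold, edgeR adjusted p = 0.0435). The ratio of the pooled counts was 39.6 (95% counting interval 6.72 to 1601). Over the 4 days PDGFB did not pass the test (edgeR adjusted p = 0.0887). PGF, a ligand of FLT1, had 9, 3, 1 and 2 counts on the 4 days, and FIGF had 9 at Day0 and 0 later. APLN, the gene of apelin, had 25 counts at Day0, 2 at Day1, 2 at Day2 and 13 at Day3, and was not tested over the days. APLNR was at 91.8 and 172 CPM at Day1 and Day2. The gene of Elabela, the other APLNR ligand, was not matched in the files.

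**Figure D5:**
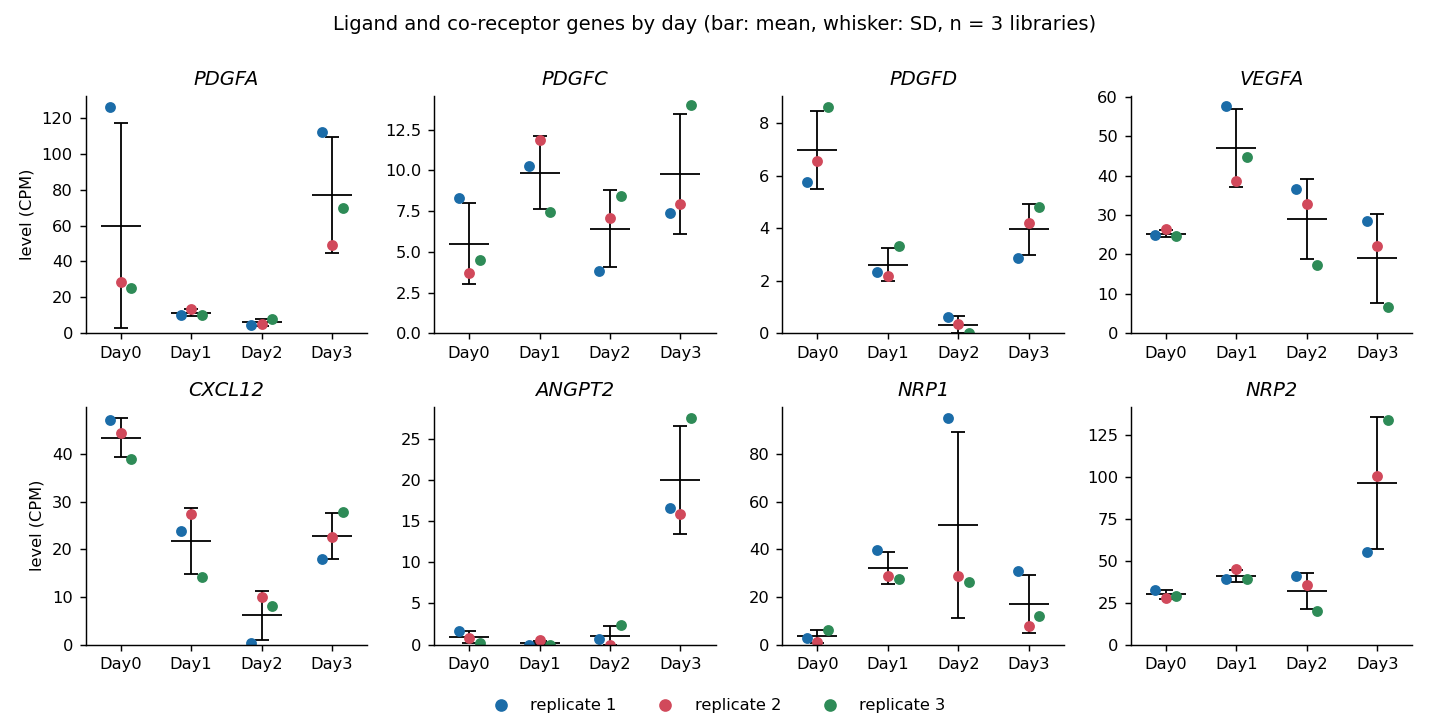
Level in CPM (y axis) of 6 ligand genes and of the co-receptors NRP1 and NRP2 on each day (x axis), with the 3 libraries as points, the mean as a bar and the SD as a whisker that stops at 0. PDGFA, PDGFD and CXCL12 are lowest at Day2, and ANGPT2 and NRP2 are highest at Day3.

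Of the 7 related receptors and co-receptors 6 passed the filter over the days. NRP1, a co-receptor for vascular endothelial growth factors, rose 9.46-fold at Day1 (adjusted p = 0.00422; a log2 change of 3.96 in place of 3.24 without Day0 replicate 3) to 32.1 ± 6.73 CPM, in the step in which FLT1 fell. NRP2, the other neuropilin, rose 3.02-fold at Day3 (adjusted p = 0.00184) to 96.2 ± 39.5 CPM. FLT4, the lymphatic receptor of the KDR family, CXCR7, the scavenging receptor for CXCL12, and PDGFRL, a gene related to PDGFRB, did not pass the test in any successive step, and TIE1, the partner of TEK, was not tested over the days. In the course 3 of 11 tested ligand genes were called higher in the last window than in the first, PDGFA 3.76-fold (adjusted p = 1.47e-10), PDGFC 2.21-fold (adjusted p = 0.00528) and ANGPT2 5.98-fold (adjusted p = 1.74e-10). APLN fell, from 27 counts to 1 (adjusted p = 0.0368, lost when any of 9 libraries was left out and on log2(TPM + 1) values). Beside them the neuropilins went in opposite directions, NRP1 5.6-fold lower (adjusted p = 4.88e-14) and NRP2 4.51-fold higher (adjusted p = 5.64e-15). FLT4 was 2.77-fold lower (adjusted p = 0.036), a call lost when any of 7 single libraries was left out and on log2(TPM + 1) values. By linear trend over the course CXCL12 was also called rising (2.23-fold, edgeR adjusted p = 0.000294), as its receptor gene CXCR4 was. Between the windows CXCL12 did not pass the test (adjusted p = 0.213). VEGFB (2.33-fold, adjusted p = 0.00757) and PGF (3.92-fold, adjusted p = 0.031) were called falling by trend only.

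The markers of other cells gave these values beside the 8 genes. Of the 10 paraxial mesoderm markers 7 were tested over the days, and 4 rose and 2 fell at Day3, among them the somite genes MEOX1, from 1 count at Day2 to 169.7 ± 43.0 CPM, and TCF15, from 2.42 ± 3.16 to 308 ± 57.5 CPM (SD, n = 3). MSGN1, a presomitic regulator, fell from 32.0 ± 23.2 CPM in the same step. In the course 7 of 9 rose and 2 fell between the first and last windows. All 6 mesendoderm markers tested rose at Day1, among them T to 193 ± 40.1 CPM, and 5 fell at Day2. Of 5 lateral and cardiac markers tested 3 rose at Day1: GATA4 from 1 count to 202, MYL7 from 0 counts to 42, at least 17.8-fold higher, and BMP4 from 1.83 to 8.85 CPM. Each of these 3 calls was lost without some single libraries: GATA4 without Day0 replicate 2 or 3, MYL7 without Day0 replicate 1, 2 or 3 or Day1 replicate 2, and BMP4 without Day0 replicate 1, 2 or 3 or Day1 replicate 2 or 3, and also on log2(TPM + 1) values (adjusted p = 0.0602). The summed level of the 10 lateral and cardiac markers was 31.3 to 48.0 TPM at Day1, 18.7 to 45.4 TPM at Day2 and 66.0 to 140.5 TPM at Day3, so it was higher at Day3, without overlap, when KDR was lowest. BMP4, HAND1 and MYL7 made up most of the Day3 sum, at 38.6 ± 14.4, 26.8 ± 31.9 and 23.6 ± 22.9 TPM (SD, n = 3), and none was called from Day2 to Day3. Other markers of the list did not share the rise. GATA4 was at 12.9 CPM at Day1 and 1.56 CPM at Day3, and FOXF1 at 3.62 CPM at Day2 and 0.638 CPM at Day3. HAND2, NKX2-5, ISL1 and TBX20 were at or near 0 at Day3. BMP4 went from 11.9 ± 9.07 CPM at Day2 to 28.2 ± 9.87 CPM at Day3 (SD, n = 3; log2 change 1.24, adjusted p = 0.105) and HAND1 from 3.39 ± 5.86 to 20.2 ± 24.6 CPM (log2 change 2.56, adjusted p = 0.145). Pluripotency markers also fell over the days. Of 6 tested 2 fell at Day1, 5 at Day2 and 2 at Day3 (SOX2, also a neural gene, rose at Day2). FLT1 was called lower at Day1 and Day3 and not at Day2 (log2 change 0.31, edgeR adjusted p = 0.688). KDR was called lower at Day2 and Day3. POU5F1, a core stem cell factor, was at 1052 ± 272 CPM at Day0 and 51.0 ± 18.8 CPM at Day3. Among endothelial markers PECAM1 was at 0 counts in all Day2 libraries, CDH5 at 0 at Day1 and Day2 and ROBO4 at 0 on all days; EGFL7 rose 5.69-fold at Day3 (adjusted p = 0.0145; 0.0685 without Day3 replicate 1). Of the endoderm markers GATA6 and CER1 were highest at Day1, at 135 ± 12.5 and 442 ± 98.6 CPM. In the course CER1, a secreted nodal antagonist, rose from 0.3 ± 0.25 to 60.7 ± 9.09 CPM (SD, n = 6; edgeR adjusted p = 1.53e-21), in the windows between which APLNR and CXCR4 rose. The summed level of 6 endoderm markers went from 5.67 to 9.83 TPM in the first window to 95.4 to 133.4 TPM in the last. CER1 made up that rise, with means of 0.53 and 113.3 TPM. GATA6 had means of 6.84 and 7.66 TPM, and SOX17, FOXA2, FOXA1 and HHEX stayed near 0. Of 5 neural markers 1 was called higher in each step, STMN2 at Day1 and Day2 and NES at Day3. The STMN2 call at Day1 (adjusted p = 0.0435) was lost on log2(TPM + 1) values (0.0881) and without any of 6 single libraries (Day0 replicate 1, 2 or 3, Day1 replicate 1 or 3, or Day2 replicate 2). The NES change fell under the limit without Day2 replicate 1 (log2 change 0.74) or Day3 replicate 3 (0.88). The part of such cells in the values of the 8 genes was not tested.

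By likeness of profile over the 12 daily libraries, among 10299 genes with a mean of at least 5 CPM, the genes closest to PDGFRA were MAN1A2 (Pearson r 0.972), HGSNAT (0.969) and COL5A2 (0.968). Closest to KDR were SLC4A7 (0.968), PMAIP1 (0.962) and TDGF1 (0.958), the nodal co-receptor gene. Closest to APLNR were FLNC (0.97), TNC (0.964) and RELN (0.956), and closest to CXCR4 were HDAC1 (0.976), TMEM132C (0.964) and SNX4 (0.96). Over the 23 time-point means of the course, among 10247 genes, other names came first for each of these 4 receptor genes. They were ABCA1 (0.912), PIK3R3 (0.882) and DENND5B (0.869) for PDGFRA, NINL (0.782), AZI1 (0.773) and COL6A1 (0.758) for KDR, and CNKSR3 (0.984), SDC2 (0.983) and NCAM1 (0.978) for APLNR. For CXCR4 they were SDC2 (0.928), SPRY1 (0.92) and APLNR itself (0.919).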

How the data were processed

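RNA libraries (LM-seq) of H1 cells were analysed, 12 daily and 46 from the course. The authors deposited, per gene and library, expected counts (estimated read counts that need not be whole) and TPM (transcript abundance scaled for length and library), per the file headers. Per the submitters' processing notes Bowtie 0.12.2 was used, and the builds hg19 and mm8 are named. The program behind the expected counts: not given in the sources used here. Expected counts were rounded, normalized by TMM and tested with edgeR 4.0.16 (R 4.3.3, quasi-likelihood F test, filterByExpr, Benjamini-Hochberg adjustment over all genes tested), days and course separately, in 1 fit each. Depth limits low values: 3 counts equal 0.384 to 0.949 CPM in the days and 0.335 to 1.18 CPM in the course, and intervals cover counting error only. No 2 libraries agreed within sampling noise. The script was tested on simulated data. Levels across genes are in TPM. TPM was tested as log2(TPM + 1) or log2(TPM + 0.1) with limma 3.58.1, and other alternatives were DESeq2 1.42.0 size factors, no filter, a replicate block, the 6 libraries of a comparison alone, and leaving out each library. Promoter windows came from RefSeq, and motif matches from a search for the letters given above. Intervals of count ratios are exact. Named were all members, all ligands and co-receptors in the tables, up to 4 genes per marker list with the largest called change between successive days, and the 3 genes most like each of 4 receptors; any gene outside that rule was named after its values were seen. The members and lists were chosen with earlier results of these data known. Symbols APELA, VEGFD, ACKR3 and TBXT were not matched; FIGF, CXCR7 and T were used for the last 3.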

Additional observations from a re-analysis of the deposited data

How the results depend on the processing

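Of 986 values of 41 named genes under another setting, 952 kept their direction and call, as did 3481 of 3584 with 1 library left out. With only the 6 libraries of both days, 1139 genes were called from Day0 to Day1 (548 higher, 591 lower) and 1008 from Day2 to Day3 (699 higher, 309 lower). On TPM the split moved, and the median of all genes shifted by -0.118, -0.229 and 0.331 log2 units in the 3 steps: with pseudocounts of 1 and 0.1, limma called 292 and 273 genes higher and 1618 and 1605 lower from Day1 to Day2, 2066 and 1923 higher and 308 and 278 lower from Day2 to Day3, and 691 and 657 higher and 2709 and 2710 lower from Day0 to Day2. By TMM these were 457 and 1042, 1153 and 515, and 1059 and 1455. TEK turned sign with pseudocounts of 1 and 0.1 from Day0 to Day1 (0.044 and 0.82) and with 0.1 from Day2 to Day3 (-0.083), Day0 to Day2 (0.25) and Day0 to Day3 (0.17), and FLT1 from Day1 to Day2 (-0.24 and -0.29); none of these was called in any of these fits. The rhythm test called 18 genes, 644 with no filter (1 of the 8 among them) and 1 with either pseudocount, so it depends on the filter; the cause was not tested. Same-numbered libraries did not deviate together (r -0.113 to 0.167, median 0.0105, over 18 pairs of days), so numbers were not taken as pairs; with a replicate block TEK from Day2 to Day3 turned to -0.17, and the calls of PDGFD from Day1 to Day2 (adjusted p = 0.0704) and ERG from Day2 to Day3 (adjusted p = 0.0789) were lost, while the same number of the 8 genes was called in every comparison as without it.

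With 1 library left out, genes called ranged from 437 to 826 from Day0 to Day1 (226 to 411 higher, 193 to 415 lower), 875 to 1826 from Day1 to Day2 (227 to 599 higher, 648 to 1227 lower), 976 to 2059 from Day2 to Day3 (683 to 1351 higher, 293 to 708 lower) and 1 to 155 for the rhythm. Of the 8 genes 3 to 5 were then called from Day1 to Day2, 6 to 7 from Day2 to Day3, 5 to 6 from Day1 to Day3 and 5 to 6 in the course. Uncalled log2 changes that crossed 0 were PDGFRB (-0.39 to 0.98), TEK (-1.42 to 0.17) and LMO2 (-0.30 to 0.82) from Day0 to Day1, FLT1 from Day1 to Day2 (-0.52 to 0.70), TEK from Day2 to Day3 (-0.060 to 0.88) and Day0 to Day3 (-1.51 to 0.082), and TEK (-0.49 to 0.44) and LMO2 (-0.14 to 1.73) from Day1 to Day3.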
